A study of Rattus norvegicus with 7 samples.

Results

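*Cd36* and *Scarb1* are the 2 genes of the class B scavenger receptor family whose rows could be identified in the count table of a study of chronic stress in the rat adrenal gland, out of 32754 Ensembl genes listed. *Cd36* (ENSRNOG00000040108) was taken by its identifier and *Scarb1* (ENSRNOG00000000981) through the pairing of identifiers and symbols in the study's lists of genes that changed under stress. Both genes were therefore chosen from values of these same libraries, *Cd36* from changes against control under both stress protocols and *Scarb1* from its change under one of them. Their levels against control are given below as a description. Where it is said which of them passed a threshold against control, that is no evidence of a change, because the choice used the same contrasts.

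The animals were male Sprague-Dawley rats whose protocols ran for 3 weeks of adolescence and whose adrenal glands were taken on postnatal day 50 to 51. Control animals lived 3 to a cage and were only weighed and handled. Animals under chronic shock (CS) were caged alone, day and night, in boxes with an electrified bar floor, where unpredictable foot shocks were given. Animals under chronic variable stress (CVS) shared standard cages for most of the time and went through changing daily challenges, such as restraint, swimming, cold, predator odour, shock and times without food or water. The control group had 3 libraries and each stress group 2, every one made from a pool of RNA of 8 to 9 animals, with 20095746 to 32242123 counts in each, so that each replicate error below compares pools and does not show the variation from rat to rat. The CS animals were also kept in another room than the other groups. Single housing, the bar floor, the room and shock changed together in CS and cannot be told apart here.

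Class B scavenger receptors are membrane proteins held in the cell surface at both of their ends, with a large loop outside the cell that binds lipids and lipoproteins. CD36 takes up long-chain fatty acids and oxidised low-density lipoprotein, and is known from fat, heart and skeletal muscle, macrophages, platelets and the lining of small blood vessels. SR-BI, the product of *Scarb1*, binds high-density lipoprotein and passes its cholesterol esters into the cell. In the rodent adrenal cortex this selective uptake is the main supply of cholesterol for steroid hormones, and *Scarb1* transcription there is known to rise with corticotropin and with steroidogenic factor 1. The third member of the family, *Scarb2*, encodes a lysosomal membrane protein and was not analysed here, because no source used here paired its symbol with a row.

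No RefSeq promoter was available here for *Scarb1*, so only the stretch before the *Cd36* start site was searched and is shown. These are the 250 bases before the start in the RefSeq promoter table, at chr4:18246332-18246581 on the + strand of the GRCr8 build, in lower case with the motif that was found in capitals.
Cd36: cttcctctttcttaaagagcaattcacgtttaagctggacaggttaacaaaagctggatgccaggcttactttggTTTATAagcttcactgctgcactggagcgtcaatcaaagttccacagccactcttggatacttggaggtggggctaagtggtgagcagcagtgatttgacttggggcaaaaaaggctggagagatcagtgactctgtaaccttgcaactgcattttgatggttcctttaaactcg
The capitals mark TATAAA on the opposite strand (TTTATA as printed), the letters of a TATA box, 175 to 170 bases before the start. These letters were present on either strand in the same 250 bases of 12.9% of 33469 RefSeq promoters. No match was present for AGGTCA, the half-site of nuclear receptors (14.1% of promoters), for the longer AAGGTCA read by steroidogenic factor 1 (3.99%, and itself holding the former), for the sterol regulatory element TCACNCCAC (0.974%) or for the E-box CACGTG (5.59%), with both strands searched. The RefSeq gene order, used for names only since its build differs from the Rnor_6.0 build of the counts, places *Cd36l1* next to *Cd36* and *Cd36-ps1* 3 places after it. Reads from such related copies may have been split between gene models, so the *Cd36* counts are uncertain to that extent.

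*Cd36* was lower in all 4 stressed libraries than in every control library, and lower under CVS than under CS. In counts scaled to an equal library total by the TMM method (normalized CPM), the control libraries had 63.0, 71.5 and 84.0. The CVS libraries had 28.0 and 25.7, and the CS libraries had 34.7 and 35.9. The 3 groups did not overlap, and every CVS library lay below every CS library and every CS library below every control library, an order held by 0.684% of the 13892 genes tested. All 4 stressed libraries lay below all controls for 3.62% of genes. The control mean was 72.8 ± 10.6 (SD, n = 3). CVS stood at 36.9% of it, with 26.8 ± 1.61 (SD, n = 2), and CS at 48.5%, with 35.3 ± 0.872 (SD, n = 2). The log2 fold change against control in edgeR's fit over all genes was -1.44 in CVS (standard error 0.13) and -1.04 in CS (standard error 0.13). Of all genes tested, 0.0504% had a lower value in CVS and 0.18% in CS. Since both protocols were compared with the same 3 control libraries, these are not separate pieces of evidence. In whole glands, fewer cells that carry *Cd36* and less of its RNA per cell cannot be told apart.

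*Scarb1* was higher in both CS libraries than in every control library, and was split under CVS. The control libraries had 2391, 2622 and 2879 normalized CPM. The CS libraries had 3876 and 3982, and the CVS libraries 3719 and 2741. CVS library 1 lay close to the CS libraries, while CVS library 2 lay inside the control range. Both CS libraries lay above all controls for 12.9% of genes. The control mean was 2630.4 ± 244 (SD, n = 3). CS stood at 149% of it, with 3929 ± 75.2 (SD, n = 2), and CVS at 123%, with 3229.9 ± 692 (SD, n = 2). The log2 fold change against control was 0.58 in CS (standard error 0.10) and 0.30 in CVS (standard error 0.14), and 2.25% and 6.54% of all genes tested had a higher value. The CVS value rested on 1 library, since it was 0.06 without CVS replicate 1 and 0.50 when CVS replicate 2 was the one left out.

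**Figure D1:**
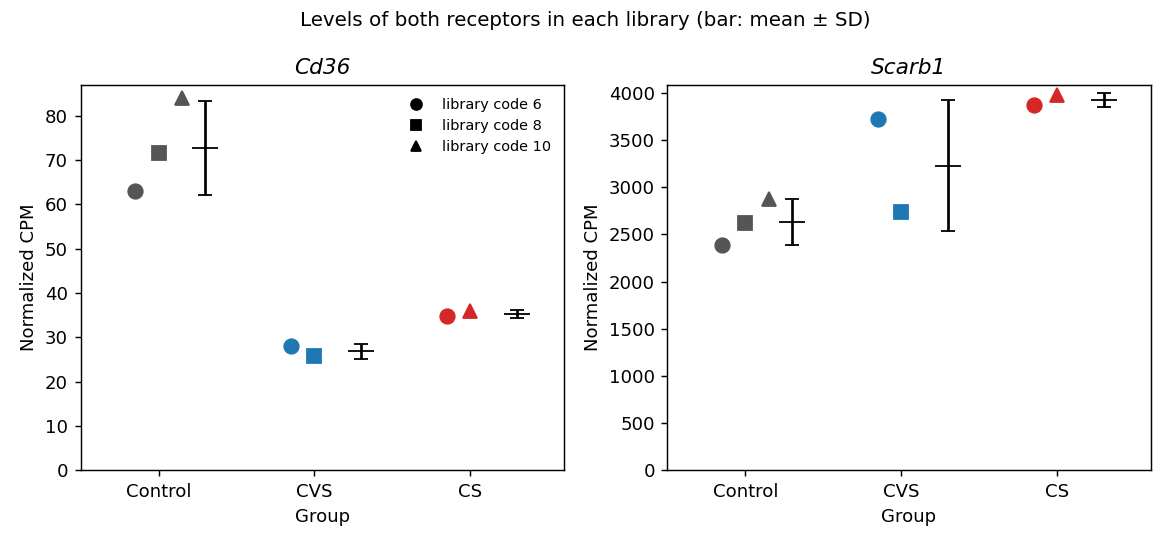
Normalized CPM (counts scaled by the TMM method; y axis, from 0) of *Cd36* (left) and *Scarb1* (right) in each of the 7 libraries by group, with the shape of a point giving the number in the library code and the black bar the group mean ± SD. The 4 stressed libraries of *Cd36* sit between 25.7 and 35.9 and the control libraries between 63.0 and 84.0, whereas for *Scarb1* CVS library 2, at 2741, lies among the control libraries.

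Ordered from lowest to highest, *Cd36* ran from CVS 2 and CVS 1 through CS 1 and CS 2 to control 1, control 2 and control 3. For *Scarb1* the order was control 1, control 2, CVS 2, control 3, CVS 1, CS 1 and CS 2, so that the first 4 libraries mixed control and CVS and differed by no more than the range of the control group. With the quasi-likelihood test of edgeR and a threshold of 0.05 on the adjusted p, *Cd36* was past the threshold and *Scarb1* was not, so 1 of the 2 members was past it in CS, beside 0.209% of all genes, and 1 of 2 in CVS, beside 0.0936%. Nothing is read from these counts, because the members were chosen from the same contrasts. The *Cd36* call in CS was lost without control replicate 1, 2 or 3 or without CS replicate 2, and in CVS without control replicate 3 or CVS replicate 1, while its direction was the same in all of these fits. For *Scarb1* in CS the threshold was passed in DESeq2's Wald test, with no filter on low counts and in every fit with a block. In CVS it was passed with the replicate number as a block in the fit of control and CVS alone (log2 fold change 0.35, standard error 0.06, on 1 residual degree of freedom), but not with the same block over all 7 libraries (0.36), with the code as a block over all 7 (0.34) or in DESeq2 (0.30).

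**Figure D2:**
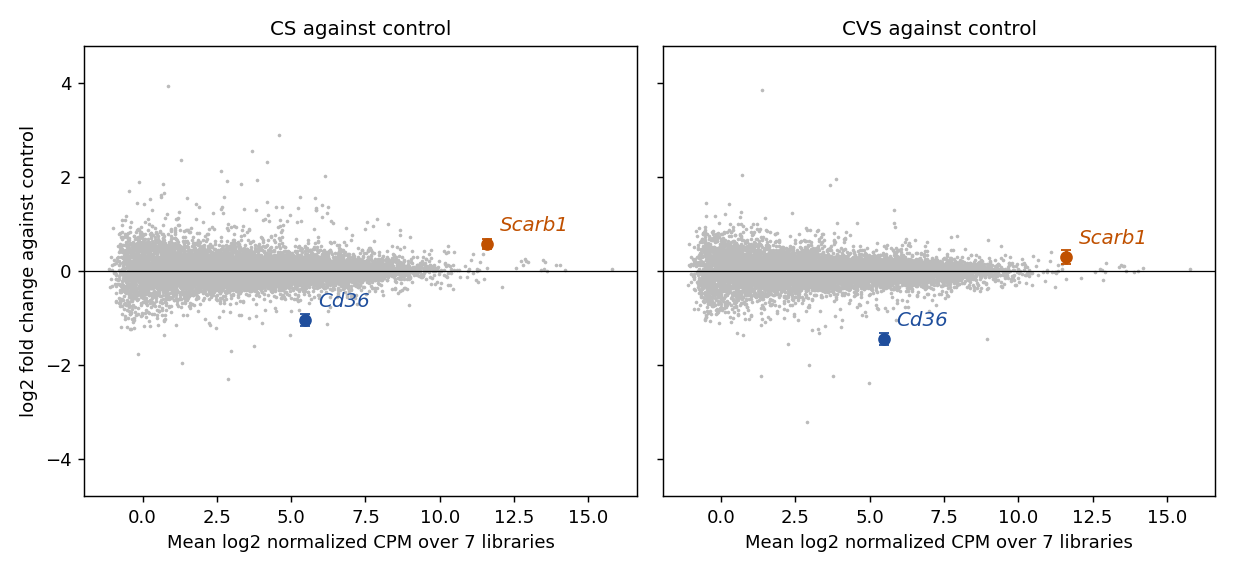
Log2 fold change against control (y axis) over the mean log2 normalized CPM of the 7 libraries (x axis) for all 13892 genes tested (grey points), for CS (left) and CVS (right), with the members in color and bars of ± 1 standard error. *Cd36* lies at -1.04 and -1.44 and *Scarb1* at 0.58 and 0.30.

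For *Scarb1* the counting error was below the spread between pools in every group, and for *Cd36* it was so in control but not in CS. *Cd36* had between 510 and 2124 counts per library, which gives a counting error (1 SD) of 2.17% to 4.43%, beside an SD of 14.5% of the mean in control, 5.99% in CVS and 2.47% in CS. The close agreement of the 2 CS libraries for *Cd36* was thus within their counting errors of 3.04% and 3.31%. *Scarb1* had between 54362 and 121061 counts, a counting error of 0.287% to 0.429%, beside an SD of 9.27% of the mean in control, 21.4% in CVS and 1.91% in CS. Its share of all counts was 0.25% in control library 1 (95% exact binomial confidence interval 0.248% to 0.252%) and 0.39% in CS library 1 (0.388% to 0.392%). These intervals cover counting error only. Between the 2 CVS libraries *Scarb1* differed by 0.44 on the log2 scale, and 86.3% of genes differed by less, with a median over all genes of 0.16. *Cd36* differed by 0.12 between them.

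The library codes in the labels carry the number 6 for control 1, CVS 1 and CS 1, the number 8 for control 2 and CVS 2, and the number 10 for control 3 and CS 2, and no source used here says what the numbers mark. Within a code, *Cd36* was lower in each stressed library than in the control library. Its log2 difference was -1.17 for CVS and -0.86 for CS in code 6, -1.47 for CVS in code 8 and -1.23 for CS in code 10. *Scarb1* was higher by 0.64 for CVS and 0.70 for CS in code 6 and by 0.47 for CS in code 10, all on the log2 scale, but by only 0.06 for CVS in code 8. The elevated *Scarb1* of CVS was thus seen within code 6 and not within code 8, each with 1 CVS and 1 control library, and the code and the pool cannot be told apart.

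The ratio of *Scarb1* to *Cd36* counts within a library does not depend on how libraries are scaled. It was 38.0, 36.7 and 34.3 in the control libraries. It was 133 and 107 in the CVS libraries, and 112 and 111 in the CS libraries. The stressed libraries all lay far above the control range and the CVS and CS ranges overlapped, although CVS had the lower *Cd36* and CS the higher *Scarb1*. The control mean of the ratio was 36.3 ± 1.87 (SD, n = 3). The CVS mean was 3.3 times as high at 120 ± 18.6 (SD, n = 2), and the CS mean 3.07 times at 111 ± 0.62 (SD, n = 2). The ratio is one of counts and not of levels per length, so only its change between libraries can be read. It combines the values by which the members were chosen and is given without a test.

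**Figure D3:**
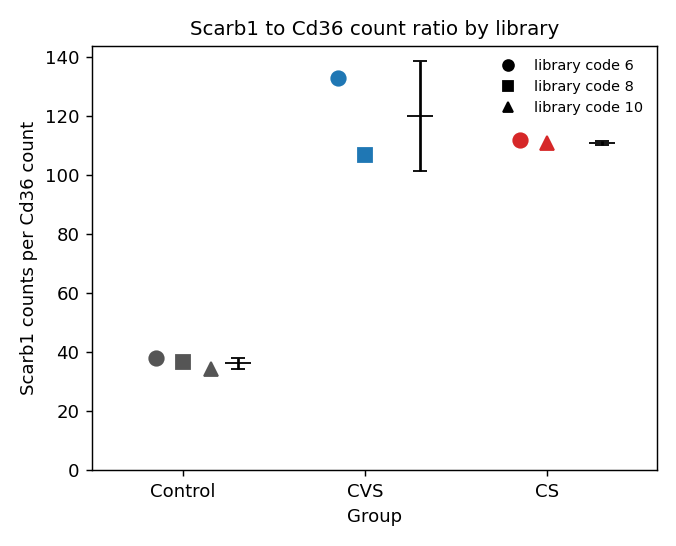
*Scarb1* counts per *Cd36* count (y axis, from 0) in each of the 7 libraries by group, with the shape of a point giving the number in the library code and the black bar the group mean ± SD. The control libraries sit between 34.3 and 38.0 and the 4 stressed libraries between 107 and 133.

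The direct comparison of CS with CVS asks whether the kind of stress changed the level of a receptor. This contrast did not choose the members, but it uses the stressed libraries by which they were chosen. *Cd36* was 1.31-fold higher in CS than in CVS, with a log2 fold change of 0.39 (standard error 0.11, unadjusted p = 0.00896, Benjamini-Hochberg adjusted p = 0.638, from the quasi-likelihood test of edgeR), and both CS libraries were above both CVS libraries, as for 20.5% of all genes. *Scarb1* had a log2 fold change of 0.28 (standard error 0.16, unadjusted p = 0.124, adjusted p = 0.715 in the same edgeR test), and was also higher in both CS libraries than in both CVS libraries. At an adjusted p under 0.1, the threshold of this comparison, 0 of the 2 members and 0 genes in all (0.0%) passed in edgeR, while 45 genes (0.324%) passed in DESeq2's Wald test, neither member among them, and 1020 genes (7.34%) had an unadjusted p under 0.05 in edgeR. With the replicate number as a block, *Cd36* passed (log2 fold change 0.39, edgeR adjusted p = 0.0574, with 0.0574 to 0.996 over all alternatives) and *Scarb1* did not. The replicate block joins CS 2, of library code 10, with CVS 2, of code 8. *Cd36* did not pass with the library code as a block over all 7 libraries, where its log2 fold change was 0.29. The *Scarb1* difference was 0.52 without CVS replicate 1 and 0.07 without CVS replicate 2.

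The genes around the receptors were described through lists of lipid and steroid genes. Of 149 symbols on these lists, 26 could be paired with a row (17.4%), all through the study's own lists of changed genes, so apart from both members 24 genes remained that had been selected for a change in these libraries. The counts below are a description of selected genes and not independent evidence of a direction. In CS, 4 of the 24 were called higher and 0 lower (edgeR, adjusted p under 0.05), beside 0.151% and 0.0576% of all genes, and the median log2 fold change was 0.38, against 0.01 over all genes tested. The absence of lower calls did not hold in other fits, since DESeq2's Wald test called 11 higher and 4 lower (1.37% of all genes were called) and the replicate block 13 higher and 5 lower (3.01%). In CVS 0 of the 24 were called in the main edgeR fit, with a median of -0.24 against 0.0 over all genes. In that fit 17 had an unadjusted p under 0.05, beside 6.45% of all genes (8.44% in CS, where 21 of the 24 did). DESeq2's Wald test called 3 higher and 9 lower (0.893%). In CS against CVS 0 were called in the main edgeR fit, 13 had an unadjusted p under 0.05 and DESeq2 called 4, all higher. With the replicate number as a block 6 were called higher and 12 lower in CVS, beside 5.88% of all genes, and 12 higher and 1 lower in CS against CVS, beside 6.07%.

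Among the genes of lipoprotein uptake, both with a row lay below control in CS and in CVS, the opposite side from *Scarb1*. Neither was called in the main edgeR fit. DESeq2 called both in CS and *Vldlr* in CVS, and the replicate block called both in both protocols. With no filter, edgeR without a block also called both in CS and *Vldlr* in CVS. It called *Vldlr* in CS with all 7 libraries in 1 fit as well. *Vldlr*, a receptor for triglyceride-rich lipoprotein, stood at -0.57 against control in CS and -0.49 in CVS on the log2 scale (standard error 0.09 in both). *Lipg*, the endothelial lipase that acts on high-density lipoprotein, had -0.99 (standard error 0.21) and -0.41 (standard error 0.21). The lists of cholesterol synthesis (24 symbols) and of other scavenger receptors (13 symbols) had no member with a row, so that neither the synthesis nor the other uptake routes were analysed here. Of the steroid genes, 4 had a row and 0 were called in the main edgeR fit. In that fit 3 had an unadjusted p under 0.05 in CS and 3 in CVS. DESeq2 called *Akr1b8* in CS and the other 3 in CVS, and so did edgeR with no filter and no block. The replicate block called *Akr1b8* and *Cyp11b2* in CS and the same 3 in CVS. *Cyp11b2*, the aldosterone synthase, stood at a log2 fold change of 0.37 in CS and 0.41 in CVS (standard error 0.11 in both), and *Nr0b1*, a repressor of steroidogenic factor 1, had -0.36 (standard error 0.12) and -0.72 (standard error 0.11). *Akr1b8* and *Akr1c14*, of the aldo-keto reductase family, had 0.53 and -0.39 in CS and 0.09 and -0.86 in CVS.

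Beside *Cd36*, 3 genes of fatty acid uptake and activation had a row, and none was below control in CS. *Fabp4*, a carrier of fatty acids in fat cells and macrophages, stood at 1.47 in CS (log2 fold change, standard error 0.23) and 0.68 in CVS (standard error 0.23). *Fabp5*, a related carrier, had 0.95 and -0.15, and *Acsl1*, which activates long-chain fatty acids, had 0.39 and 0.10. None of the 3 was called in the main edgeR fit, whereas in CS DESeq2 called *Fabp4* and *Acsl1* and the replicate block all 3. With no filter, edgeR without a block called *Fabp4* and *Fabp5* in CS and *Fabp4* in CVS. It called *Fabp4* in CS with all 7 libraries in 1 fit as well. In CVS, 6 of the 7 genes of fatty acid oxidation and PPAR targets lay below control, with a median of -0.41. *Pex11a*, a peroxisome protein, stood at -0.95 in CVS (log2 scale, standard error 0.19) and -0.71 in CS (standard error 0.25), and *Cpt1b*, which brings fatty acids into mitochondria, -0.77 and -0.14. *Cpt1a*, another form of that enzyme, had -0.33 and -0.24, and *Acaa2*, of the oxidation cycle, -0.33 and -0.04. *Ppard*, a nuclear receptor for fatty acids, had 0.11 in CVS and 0.63 in CS. *Angptl4*, an inhibitor of lipoprotein lipase, had -0.41 and 0.51. None of these 7 genes was called in either protocol in the main edgeR fit. With no filter, edgeR without a block called *Ppard*, *Angptl4* and *Pex11a* in CS. DESeq2 called *Ppard* and *Angptl4* in CS and, among others, *Pex11a*, *Cpt1b*, *Cpt1a* and *Acaa2* in CVS, and the replicate block called *Ppard*, *Angptl4* and *Pex11a* in CS.

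The genes of the lists called in the main edgeR fit lay in fatty acid synthesis and lipid droplets. Other list genes were also called in CS by edgeR without a block, with no filter or with all 7 libraries in 1 fit. In CS, *Thrsp*, a regulator of lipid synthesis, rose by 2.57 on the log2 scale (standard error 0.28, adjusted p = 0.0311), *Dgat1*, which completes triglycerides, 2.02 (standard error 0.27, adjusted p = 0.0409), *Scd*, the stearoyl-CoA desaturase, 1.55 (standard error 0.11, adjusted p = 0.011) and *Ldah*, a hydrolase of lipid droplets, 1.37 (standard error 0.17, adjusted p = 0.0328; all by edgeR and adjusted over all genes tested). In CVS their values were 1.84, 0.03, 1.31 and 0.05, none of them called in the main edgeR fit, while DESeq2 and the replicate block called *Thrsp* and *Scd*. *Fasn*, the fatty acid synthase, had 0.43 in CS and 0.33 in CVS, and *Dgat2*, the other enzyme of that last step, -0.93 and -0.79. *Plin1* and *Plin5*, coat proteins of lipid droplets, had 0.92 and -0.88 in CS and 0.65 and -0.58 in CVS. The number of calls in CS depended on single libraries, with 1 call left without control replicate 1 or 2, or without CS replicate 2, 0 without control replicate 3 and 7 without CS replicate 1. The log2 fold changes themselves stayed between 2.18 and 2.87 for *Thrsp*, 1.44 and 2.44 for *Dgat1*, 1.47 and 1.66 for *Scd* and 1.11 and 1.59 for *Ldah* when single libraries were left out. The white adipocyte markers given below were higher in the same CS libraries, and their part in these values was not tested.

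**Figure D4:**
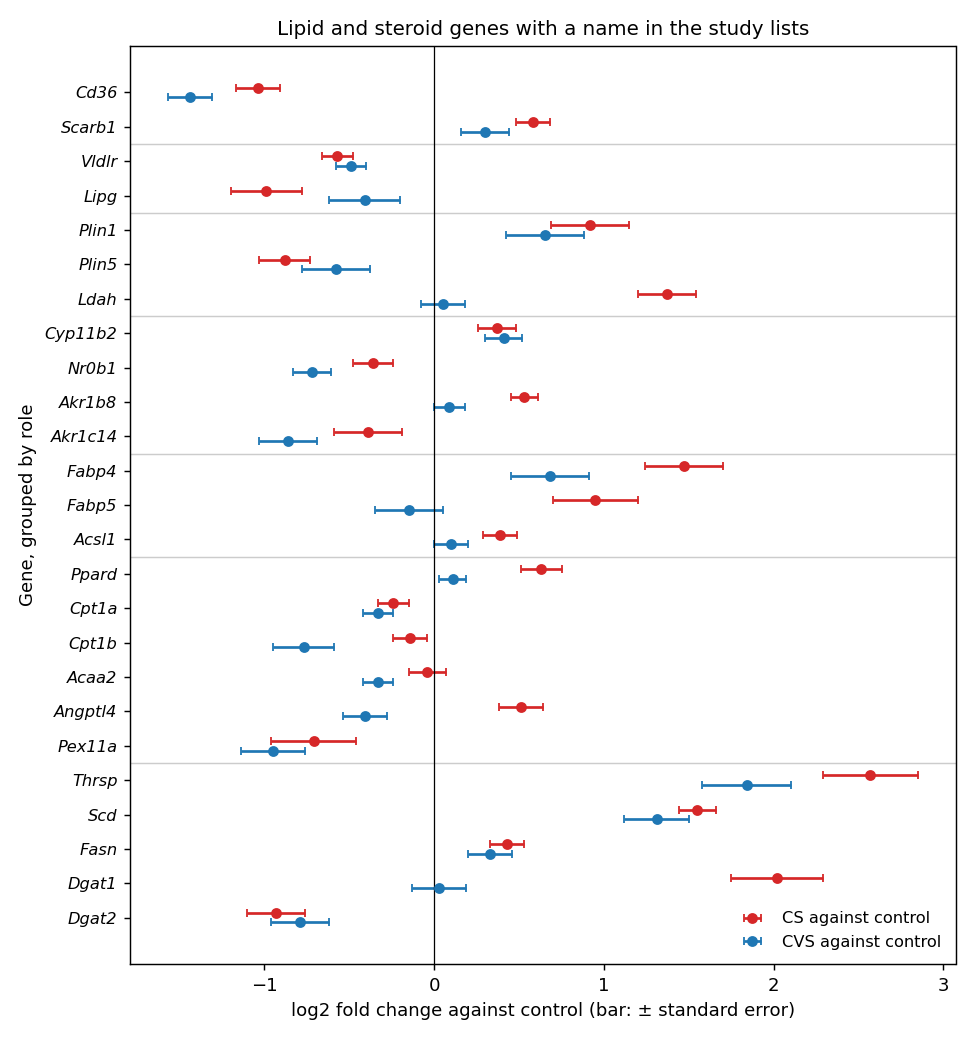
Log2 fold change against control (x axis, with bars of ± 1 standard error) in CS (red) and CVS (blue) for both receptors and the other lipid and steroid genes whose values are reported, grouped by role from top to bottom as class B receptors, lipoprotein uptake, storage, steroid synthesis, fatty acid uptake, oxidation, and fatty acid and triglyceride synthesis. *Cd36* lies at -1.04 and -1.44, apart from the fatty acid uptake genes *Fabp4*, *Fabp5* and *Acsl1*, which lie between 0.39 and 1.47 in CS.

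The cell types of the whole gland were followed through their markers. *Cyp11b2*, 1 of 3 markers of the outer cortex, had 1679 to 2096 normalized CPM in control, 2459 to 2594 in CVS and 2401 to 2519 in CS, above all controls in every stressed library. *Chgb*, 1 of 8 markers of the medulla, had 1093 to 1233 in control, 1049 to 1194 in CVS and 1500.3 to 1566 in CS, so that both CS libraries lay above all others, as they did for *Scarb1*. The list of general adrenocortical markers had no member with a row, and neither had the lists of endothelial cells, platelets and red blood cells, and fibroblasts, so part of the cells known to carry CD36 could not be followed. White adipocyte markers, of which 6 of 8 had a row (*Adipoq*, *Retn*, *Cidec*, *Plin1*, *Cfd* and *Fabp4*), summed to 32.6 to 50.1 normalized CPM in control, 58.1 to 61.4 in CVS and 88.9 to 103 in CS, so that they were highest in CS, as *Scarb1* was. *Plin1* and *Fabp4* are also among the 24 genes described above, and all markers with a row come from the study's lists. The brown fat and muscle genes *Cox8b* and *Myom2*, 2 of 10 on their list, summed to 107 to 125 in control, 71.7 to 72.5 in CVS and 88.4 to 105 in CS, in the same order of groups as *Cd36*. *Myom2* alone had this order, with 73.3 to 91.9, 52.4 to 56.3 and 64.9 to 66.1. *Cox8b* had 27.3 to 39.4 in control, 15.4 to 20.1 in CVS and 22.3 to 39.6 in CS, so its CS and control libraries overlapped. *Mrc1*, 1 of 10 macrophage markers, had 54.0 to 60.8 in control, 75.3 to 85.4 in CVS and 64.9 to 65.9 in CS, the reverse order to *Cd36*, and *S100b*, 1 of 5 Schwann cell markers, had 14.6 to 17.7, 26.8 to 29.5 and 17.9 to 19.8. The part of these cell types in the levels of the receptors was not tested.

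Likeness of pattern was measured as Pearson's r of log2 normalized CPM over the 7 libraries, among the genes with a symbol, and describes these libraries only. Those genes all came from the study's lists of changed genes. The libraries fall into the 3 groups, so r takes in the difference between groups and the genes share the same libraries and depths. The genes most like *Cd36* were *Tst*, a mitochondrial sulfurtransferase (r = 0.988, the highest of all genes tested), *Amd1*, an enzyme of polyamine synthesis (0.982), the cadherin gene *Cdh8* (0.98), *St3gal5*, which makes gangliosides (0.967), and *Gpd1l* (0.962). *Tst* went from a mean of 251 normalized CPM in control to 188 in CVS and 197 in CS, a smaller relative change than that of *Cd36*. *Cdh8* went from 8.07 to 2.77 and 3.74, a relative change close to that of *Cd36* (72.8 to 26.8 and 35.3). A high r thus does not give the size of a change. The genes most like *Scarb1* were *Phlda3* (0.98), *Slc25a12*, a mitochondrial carrier of aspartate and glutamate (0.965), *Tinagl1* (0.96), the potassium channel gene *Kcnk15* (0.94) and *Adipoq*, the adipocyte hormone adiponectin (0.938). *Phlda3* went from 21.9 in control to 25.8 in CVS and 32.9 in CS. Of all genes tested, 72 had an r over 0.9 with *Cd36* and 78 with *Scarb1*. Some genes without a symbol were more alike than the last gene named. Of the genes tested, 7 had a higher r with *Cd36* than *Gpd1l*, and these include the genes named before it. With *Scarb1*, 21 had a higher r than *Adipoq*, again including the genes named before it.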

How the data were processed

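Poly(A) RNA of whole adrenal glands was sequenced as strand-specific 50-base single reads. Alignment by the authors was to the Rnor_6.0 genome in Rsubread, and the deposited values are raw counts per Ensembl gene from featureCounts; the versions, annotation release and strand setting are not given in the sources used here. The 7 libraries had 20095746 to 32242123 counts. Groups were taken from the labels (3 control, 2 CVS, 2 CS). The 13892 genes with at least 10 counts in every library, the filter of the study's methods, were fitted with edgeR 4.0.16 (TMM scaling, quasi-likelihood test, R 4.3.3), one fit per comparison, with Benjamini-Hochberg adjustment over all genes tested and thresholds of 0.05 against control and 0.1 between CS and CVS. Normalized CPM are CPM on the TMM-scaled library total. Standard errors are the log2 fold change divided by the root of the F statistic. The fit was tested on simulated data. DESeq2 1.42.0, the study's tool, other scalings and filters, blocks and the leaving out of each library were alternatives.

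The members and lists were chosen with earlier results of these data known. Symbols came from the study's own lists of changed genes (276 genes), which also hold fold changes and p-values of the authors that were not used. Genes were named if they were members, were called on a lipid list or had one of the 2 smallest p-values of their list in a comparison with control, or were among the 5 most like a member; the rest of the lipid lists was added. The values of 1 gene of these lists are not reported here, although the counts over the lists include it. A rule on protein identity was not run, because no protein table was given. Promoter letters came from the RefSeq table of GRCr8.

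Libraries with the same replicate number in the labels deviated together. Over 6 pairs the correlation of their deviations from the group means was 0.21 to 0.463. Groups of 2 are mirror images, so these values are not independent. The main fits nevertheless did not pair the libraries, and values given without mention of a block are unpaired. Pairing by the replicate number was run only as a block in alternative fits. What the number marks is not given in the sources used here. It joins CS 2, of library code 10, with control 2 and CVS 2, both of code 8. In the fit of control and a single stress group, the replicate number as a block left 1 residual degree of freedom, against 3 without it. The comparison of CS with CVS held fewer libraries and left fewer than 3 without a block. Replicates were separate pools, and their counts differed by more than sampling noise.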

Additional observations from a re-analysis of the deposited data

Results flagged for a closer look

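*Angptl4*, an inhibitor of lipoprotein lipase on the list of fatty acid oxidation genes, stood out because both CS libraries lay above every control library and both CVS libraries below. It had 33.3 to 41.6 normalized CPM in control, 47.7 to 57.5 in CS and 25.1 to 30.0 in CVS. Its symbol came from the study's list of genes changed in CS, so its level in CS over control is no evidence of a change. Both CS libraries lay above all controls for 12.9% of genes and above both CVS libraries for 20.5%. The share of genes with the full order of *Angptl4* was not counted. CS exceeded CVS by 0.92 on the log2 scale (standard error 0.14, unadjusted p = 0.000418, adjusted p = 0.546, edgeR), and did not pass the threshold of 0.1. It passed in DESeq2's Wald test, as 0.324% of all genes did, with no filter on low counts and in every fit with a block. With the replicate number as a block its adjusted p was 0.00119 in edgeR, where 6.07% of all genes passed. It did not pass in edgeR with other scalings, with filterByExpr, with the legacy calculation off or with all 7 libraries and no block. With single libraries left out, the log2 difference was 0.78 to 1.06. The cause was not tested.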

How the results depend on the processing

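*Cd36* was below and *Scarb1* above control in every alternative run, from -1.14 to -0.93 and 0.51 to 0.65 (log2) in CS and from -1.53 to -1.31 and 0.06 to 0.50 in CVS. *Cd36* in CS over CVS was 0.29 to 0.46. It passed with the replicate block and with all 7 libraries and the replicate block (0.39 in both), and not with all 7 libraries and the code block (0.29); *Scarb1* was 0.07 to 0.52. With single libraries left out, *Cd36* was -1.14 to -0.93 in CS, -1.53 to -1.32 in CVS and 0.33 to 0.46 in CS over CVS, and the ratio of *Scarb1* to *Cd36* 35.5 to 37.3 in control, 107 to 133 in CVS and 111 to 112 in CS.

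The number of genes called moved most. In CS it was 29, and 191 in DESeq2, 232 with no filter, 418 with the replicate block, 527 with the library code block, and 361 and 580 with all 7 libraries and the replicate or code block. In CVS it was 13, and 124 in DESeq2, 7 with DESeq2 size factors, 8 with library totals, 151 with no filter, 8 with filterByExpr, 6 with the legacy calculation off, 817 with either block, and 122 and 257 with all 7 libraries and the replicate or code block. In CS over CVS it was 0, and 45, 391 and 843 in DESeq2, with no filter and with the replicate block, and 520 and 287 with all 7 libraries and either block. Leaving out 1 library gave 1 to 83, 0 to 16 and 0 to 86.

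Of the 24 lipid and steroid genes, CS had 4 called, and 15 in DESeq2, 16 with no filter, 18 with either block, and 17 and 18 with all 7 libraries and the replicate or code block. CVS had 0, and 12, 11 and 18 in DESeq2, with no filter and with either block, and 10 and 13 with all 7 libraries. CS over CVS had 0, and 4, 10 and 13 in DESeq2, with no filter and with the replicate block, and 10 and 9 with all 7 libraries. Leaving out 1 library gave 0 to 7, 0 to 3 and 0 to 6.

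The direction turned for *Acaa2* in CS (0.12 without CS replicate 1, from -0.22 upward with single libraries left out) and, in CVS, for *Ldah* (-0.09 without control replicate 1), *Akr1b8* (-0.03 without CVS replicate 1, up to 0.20 without CVS replicate 2) and *Dgat1* (-0.12 without control replicate 1 and -0.09 without CVS replicate 2, up to 0.14 without CVS replicate 1). The cause was not tested. The code block over all 7 libraries was chosen after seeing the data, and a code block for CS over CVS alone left no residual degrees of freedom. Where a group kept 1 library, it was assumed to vary like the others.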
